A study of Homo sapiens with 9 samples.

Results

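The markers by which neuroendocrine prostate cancer is recognised, and the repressor that keeps neuronal genes silent, were followed in multicellular tumor spheroids (MTSs) of PC3 cells. The 9 genes were chosen by name and matched to the gene symbols of the deposited tables: the granins CHGA, CHGB and SCG2, the synaptic vesicle proteins SYP and SYT1, the enolase ENO2, the transcription factor INSM1, the repressor REST and the splicing factor SRRM4. All 9 were listed among the 27111 genes, and 5 of them (SYP, ENO2, REST, SCG2 and SYT1) were among the 17108 genes that passed the expression filter and were tested. PC3 is a human prostate carcinoma line. The study's authors describe it as coming from a bone metastasis, with features of small cell neuroendocrine carcinoma. Lentivirus carrying the murine long (NF-YAl) or short (NF-YAs) splice isoform of NF-YA, the regulatory subunit of the CCAAT-binding factor NF-Y, or no insert (Empty), was used to derive the stable lines under puromycin selection, so the 3 lines share the vector backbone and the selection. Each library was made from 18 MTSs pooled after 7 days of culture in Matrigel-containing medium, and the methods name independent experiments, giving 3 libraries per line with the letters A to C, or A, B and D for NF-YAl. The labels name no second line per construct, so the line and the transgene cannot be told apart.

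Neuroendocrine cells store hormones and amines in dense-core granules built on granins and release them through the exocytosis machinery of neurons, which is why granins and synaptic vesicle proteins serve as their markers. Prostate tumors can take on this state under hormone therapy, with loss of luminal markers and gain of lineage factors such as INSM1, ONECUT2, POU3F2 and MYCN. REST, a zinc finger protein, binds the RE1 element near neuronal genes and recruits the SIN3 and RCOR1 corepressor complexes, while SRRM4 can splice REST transcripts into a form that lacks most of the repressor. High REST with low SRRM4 is therefore the usual setting of an epithelial cell, and the reverse that of a neuron.

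Total expected counts were 18076979 to 27163976 per library. Values are given as CPM, a gene's counts relative to the depth of its library, scaled by the TMM method of edgeR, and 3 counts in a library, taken as the floor of detection, correspond to 0.118 to 0.162 CPM. The targeted gene NFYA stood at 91.8 ± 4.24 CPM for Empty, against 341 ± 49.3 in NF-YAl and 261 ± 5.71 in NF-YAs (mean ± SD, n = 3), reads of the murine transgene included as far as they aligned to human transcripts, with every library of both overexpressing lines above every Empty library. The epithelial keratins KRT8 and KRT18 were at 286 ± 23.9 and 349 ± 24 CPM in Empty and were lower in NF-YAl (log2FC -1.33 and -0.42, adjusted p = 2.5e-06 and 0.00722) and NF-YAs (log2FC -0.78 and -0.49, adjusted p = 7.91e-05 and 0.00255). EPCAM, an epithelial adhesion molecule, was low in Empty, at 0.982 ± 0.0576 CPM, and higher in NF-YAl (log2FC 2.16, adjusted p = 5.49e-05) and NF-YAs (log2FC 1.46, adjusted p = 0.000878). The part of these changes in the member results was not tested. KLK3 was at 0 in all 9 libraries. One library stood apart on the TPM scale: genes with an effective length under 200 bases, mostly abundant small RNAs, took 20.91% of the TPM of NF-YAl D and 44.78 to 58.92% of that of the other 8 libraries. Since TPM share a fixed total, the TPM of the other detected genes of NF-YAl D are raised relative to their CPM. Results are therefore given on the count scale, with TPM beside them where the reading changes. NF-YAl D also stood farther from its replicates in counts, with a chi-square per gene of 86.7 against NF-YAl A and 70.4 against NF-YAl B, beside 28.9 between A and B and 6.08 to 47.4 within the other lines. Without it, ENO2 in NF-YAl against Empty had a log2FC of -0.61 (adjusted p = 0.000264) and SYT1 0.51 (adjusted p = 0.0251), and of the member calls in the 3 comparisons that of SYP in NF-YAl was lost (adjusted p = 0.0133).

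The RE1 elements near the members are shown because they are the sites through which REST acts. The arms TTCAGCACC and GGACAGCGC, separated by 2 free bases, were searched on both strands within 5000 bases of the start of the main transcript (MANE Select) of 6 members, allowing mismatches in the arms. CHGB, INSM1 and SCG2, which had no entry among the RefSeq promoters used below, were not searched. Capitals mark bases that match the arms and lower case marks mismatches and the free bases.
CHGA, chr14:93389868-93389887, plus strand, GRCh37: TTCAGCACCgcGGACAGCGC
SRRM4, chr12:119419638-119419657, plus strand, GRCh37: TTCAGCACtttGGACAGCGC
SYP, chrX:49056582-49056601, minus strand, GRCh37: TcCAGCACCgtGGACAGaGC
The CHGA site had 0 mismatches and lies in an intron, centred 383 bases from the start. The SRRM4 site had 1 mismatch and lies in an untranslated part of an exon, 302 bases from the start, and the SYP site had 2 and lies in an intron, 60 bases from the start. Among 18922 gene starts searched in the same way, 0.074% had a site with 0 mismatches, 0.386% one with at most 1 and 0.946% one with at most 2. No site with at most 3 mismatches, which 2.59% of starts had, was found near ENO2, SYT1 or REST itself. A match describes the letters only, and binding was not measured here.

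The promoters of the 3 members that passed the test in a comparison are shown because NF-Y, whose subunit was overexpressed, binds the CCAAT box. RefSeq promoters, running from 250 bases before to 50 bases after the start, were at hand for 6 of the 9 members, and CHGB, INSM1 and SCG2 had no entry. Capitals mark CCAAT or its reverse complement ATTGG.
SYT1 promoter, chr12:78864524-78864823, plus strand, GRCh38.p14: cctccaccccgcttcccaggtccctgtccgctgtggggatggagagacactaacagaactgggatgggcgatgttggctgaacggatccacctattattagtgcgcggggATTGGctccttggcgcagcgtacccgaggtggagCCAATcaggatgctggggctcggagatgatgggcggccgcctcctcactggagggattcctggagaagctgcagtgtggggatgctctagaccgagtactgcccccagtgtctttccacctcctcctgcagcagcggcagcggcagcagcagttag
ENO2 promoter, chr12:6914330-6914629, plus strand, GRCh38.p14: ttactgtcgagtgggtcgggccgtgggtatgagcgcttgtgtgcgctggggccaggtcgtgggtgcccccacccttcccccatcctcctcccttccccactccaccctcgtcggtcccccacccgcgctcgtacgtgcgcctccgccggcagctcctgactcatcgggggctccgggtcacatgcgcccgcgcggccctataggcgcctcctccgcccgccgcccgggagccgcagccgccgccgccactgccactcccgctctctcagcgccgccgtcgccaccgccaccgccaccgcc
SYP promoter, chrX:49200144-49200443, minus strand, GRCh38.p14: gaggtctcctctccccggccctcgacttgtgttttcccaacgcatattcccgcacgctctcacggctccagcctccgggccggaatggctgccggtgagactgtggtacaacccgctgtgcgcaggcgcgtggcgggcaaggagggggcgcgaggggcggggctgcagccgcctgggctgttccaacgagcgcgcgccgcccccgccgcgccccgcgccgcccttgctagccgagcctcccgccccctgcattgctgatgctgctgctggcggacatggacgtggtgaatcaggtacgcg
The SYT1 promoter holds a CCAAT 106 bases and an ATTGG 140 bases before the start, while those of ENO2, SYP, REST, CHGA and SRRM4 hold neither. Of 35116 RefSeq promoters, 34.6% hold at least 1 of these boxes and 5.33% hold both.

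At baseline, ENO2 and REST were the members with high levels. Per kilobase of effective length, Empty MTSs held 134 ± 9.77 CPM of ENO2, 16.6 ± 0.765 of REST, 1.71 ± 0.274 of SYT1, 0.43 ± 0.0625 of SYP, 0.255 ± 0.0615 of SCG2 and 0.0851 ± 0.0305 of CHGA (SD, n = 3). Each step in this order was larger than the SD of either neighbour. CHGB, INSM1 and SRRM4 had at most 1 count in any Empty library. Libraries of total RNA from pooled MTSs cannot tell fewer cells that express a gene from less RNA in each cell, which holds for every difference below.

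**Figure D1:**
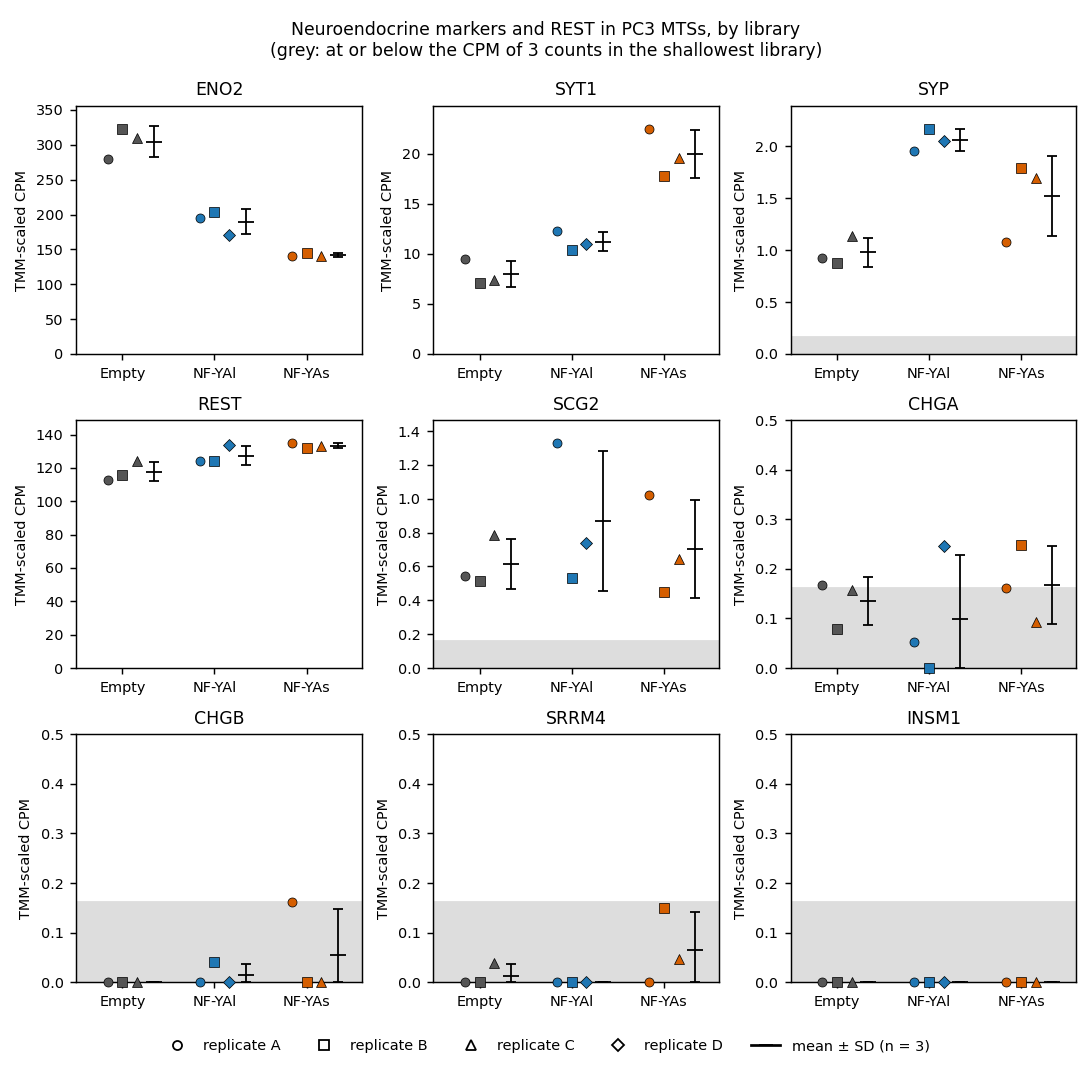
Level of each of the 9 members in every library, in TMM-scaled CPM, with the mean and SD of the 3 libraries of each line, the SD bars ending at 0; grey marks values at or below 3 counts in the shallowest library. ENO2 steps down from Empty to NF-YAl to NF-YAs, SYT1 steps up, SYP is highest in NF-YAl, REST lies between 113 and 135 CPM in every library, and CHGB, SRRM4 and INSM1 stay within the grey band.

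The members did not move together. In NF-YAl against Empty, 1 of the 5 tested members was called higher (SYP) and 1 lower (ENO2), where a gene is called at an adjusted p under 0.01 in the quasi-likelihood F test of edgeR, adjusted after Benjamini and Hochberg over all 17108 genes. Among all tested genes, 10% were called higher and 9.54% lower in this comparison. NF-YAs against Empty also had 1 member called higher (SYT1) and 1 lower (ENO2), beside 12.1% and 10.5% of all tested genes. Of differentially expressed genes (DEGs), which have in addition a |log2FC| above 1, NF-YAl had SYP among the 4.76% of genes that rose and no member among the 3.5% that fell. NF-YAs had SYT1 among the 5.44% that rose and ENO2 among the 3.9% that fell. Without overlap between libraries were 4 of the 5 tested members in NF-YAl against Empty, beside 42.4% of all tested genes, and 3 in NF-YAs against Empty, beside 56.4%. The median log2FC of the 5 tested members was 0.45 for NF-YAl and 0.18 for NF-YAs, beside 0.01 and 0.00 over all tested genes, and both comparisons share the Empty libraries. The median is the value of SCG2 in NF-YAl and that of REST and SCG2 in NF-YAs, and neither gene was called in either line.

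**Figure D2:**
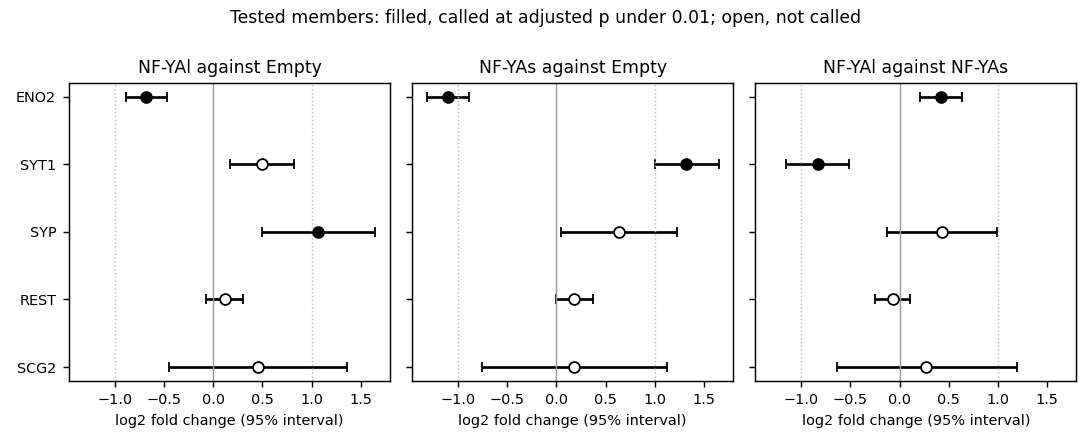
Log2 fold change with its 95% interval of the 5 tested members in the 3 comparisons, filled where called at an adjusted p under 0.01; dotted lines mark a log2FC of 1 and -1. ENO2 lies left of 0 in both lines (-0.68 and -1.10), SYP is called in NF-YAl and SYT1 in NF-YAs against Empty, and the intervals of REST stay within -0.25 and 0.37.

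The dense-core granule proteins stayed scarce. CHGA, chromogranin A, the granule core protein measured in blood as a marker of neuroendocrine tumors (chr14:93389495-93401630, plus strand, GRCh37), had 4, 2 and 4 counts for Empty A to C, 1, 0 and 6 for NF-YAl A, B and D, and 3, 5 and 2 for NF-YAs A to C. The 3 groups overlapped, and 6 counts in NF-YAl D, or 0.246 CPM, was as high as CHGA came in NF-YAl. CHGB, chromogranin B (chr20:5892156-5905999, plus strand), had 0 counts in every Empty library, 1 count in NF-YAl B and 3 counts in NF-YAs A, with 0 in the other libraries of both lines. No library of CHGB exceeded the floor, so no fold is given, and both genes were below the expression filter and were not tested.

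SCG2, secretogranin II, the precursor of the peptide secretoneurin (chr2:224461658-224467079, minus strand), was low but measurable. It had 0.545, 0.517 and 0.787 CPM for Empty A to C, 1.33, 0.532 and 0.739 for NF-YAl A, B and D, and 1.02, 0.448 and 0.645 for NF-YAs A to C. The libraries of all 3 lines overlapped, with the A library of each overexpressing line on top. Its log2FC was 0.45 (SE 0.417, adjusted p = 0.445) in NF-YAl and 0.18 (SE 0.431, adjusted p = 0.778) in NF-YAs. The 95% interval of the fold ran from 0.731 to 2.57 in NF-YAl and from 0.591 to 2.17 in NF-YAs, at 9 to 25 counts per library, so neither a fall nor a rise within these bounds could be told from no change.

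Other granule genes moved in part. Of 23 genes of granins and dense-core vesicle cargo, 14 were tested. In NF-YAl 3 were called higher and 0 lower (21.4% and 0%), beside 10% and 9.54% of all tested genes. In NF-YAs 2 were called higher and 1 lower (14.3% and 7.14%), beside 12.1% and 10.5%. The median log2FC over these 14 was 0.25 and -0.03. CPE, the carboxypeptidase that trims prohormones, rose in both lines, from an Empty level of 9.38 CPM to 30.6 in NF-YAl (log2FC 1.71, adjusted p = 7.39e-06) and 41.8 in NF-YAs (log2FC 2.16, adjusted p = 1.45e-06). SYTL4, granuphilin, which docks granules at the membrane, rose from 4.65 to 9.14 CPM in NF-YAl (log2FC 0.98, adjusted p = 0.000837) and 18.5 in NF-YAs (log2FC 2.0, adjusted p = 4.93e-06). CADPS2, a priming factor of granule release, was called higher in NF-YAl (54.7 to 117 CPM, log2FC 1.09, adjusted p = 0.00109), and PAM, which amidates peptides, was lower in NF-YAs (224 to 171 CPM, log2FC -0.39, adjusted p = 0.0071). Of the 23 genes, 6 stayed at or below the floor in all 9 libraries and 2 of these were at 0 throughout.

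SYP, synaptophysin, an integral membrane protein of synaptic vesicles (chrX:49044268-49056677, minus strand, 7 exons), was higher in NF-YAl. It had 0.923, 0.874 and 1.14 CPM for Empty A to C, 1.96, 2.17 and 2.05 for NF-YAl A, B and D, and 1.08, 1.79 and 1.70 for NF-YAs A to C. Every NF-YAl library lay above every Empty and every NF-YAs library, while NF-YAs A lay within the Empty range. The log2FC was 1.07 in NF-YAl (SE 0.262, adjusted p = 0.00817), a fold of 2.1 with a 95% interval of 1.41 to 3.12, and 0.64 in NF-YAs (SE 0.27, adjusted p = 0.0851). The direct difference between NF-YAl and NF-YAs was 0.43 (SE 0.256, adjusted p = 0.247) and did not pass the test.

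The SYP call rests on 22 to 53 counts per library and on its threshold. Leaving out any 1 library other than NF-YAs A took it past 0.01, with an adjusted p of 0.0294 without Empty A, 0.0366 without Empty B, 0.0188 without Empty C, 0.0118 without NF-YAl A, 0.0275 without NF-YAl B, 0.0133 without NF-YAl D, 0.0122 without NF-YAs B and 0.0144 without NF-YAs C, at a log2FC of 0.99 to 1.19. The call was also lost with the replicate letter as a block (log2FC 1.18, adjusted p = 0.0113), with only the 2 groups in the fit (1.07, adjusted p = 0.0136) and by limma on log2(TPM + 0.1) (1.23, adjusted p = 0.0326) or log2(TPM + 1) (0.62, adjusted p = 0.0298). The span of SYP overlaps the antisense gene SYP-AS1, and the strand setting of the counting is not given in the sources used here. Whether their exons overlap was not checked, so whether reads of the antisense gene are included is not known.

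SYT1, synaptotagmin 1, the calcium sensor of fast vesicle release (chr12:79257773-79845788, plus strand, 11 exons), rose in NF-YAs. It had 9.44, 7.11 and 7.36 CPM for Empty A to C, 12.3, 10.4 and 11 for NF-YAl A, B and D, and 22.5, 17.8 and 19.6 for NF-YAs A to C. The 3 lines did not overlap, with NF-YAl between the other 2. The span of the gene overlaps 2 unnamed genes on the opposite strand. Whether their exons overlap those of SYT1 was not checked, so whether their reads are included is not known. The log2FC over Empty was 1.32 in NF-YAs (SE 0.15, adjusted p = 4e-05), a fold of 2.5 with a 95% interval of 2.0 to 3.14. In NF-YAl the log2FC was 0.50 (SE 0.151), and its adjusted p of 0.0249 missed the threshold of 0.01. The lines differed directly, with NF-YAl below NF-YAs by a log2FC of -0.83 (SE 0.148, adjusted p = 0.00212), and this adjusted p was 0.0102 without NF-YAl B, 0.0125 without NF-YAs A and 0.011 without NF-YAs C. The main SYT1 transcript, 4810 bases long, made up 78.7, 80.8 and 82.2% of SYT1 TPM on average in Empty, NF-YAl and NF-YAs (two-sided exact permutation p = 0.9 for NF-YAl and 0.7 for NF-YAs against Empty, where 0.1 is the smallest value possible).

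Around these 2 proteins, the release machinery moved in both directions. Of 50 genes of synaptic vesicles and exocytosis, SYP and SYT1 among them, 41 were tested. In NF-YAl 6 were called higher and 6 lower (14.6% and 14.6%), beside 10% and 9.54% of all tested genes. In NF-YAs 11 were called higher and 6 lower (26.8% and 14.6%), beside 12.1% and 10.5%. Genes at or below the floor in Empty, RIMS1 among them, could be called only higher. The median log2FC was 0.06 and -0.15. RIMS1, an active zone scaffold, had at most 1 count in an Empty library and 3.48 CPM in NF-YAl and 1.63 in NF-YAs, at least 27.7-fold and 12.9-fold above the floor of 3 counts per library in Empty. Its paralog RIMS2 rose from 0.373 CPM to 4.37 in NF-YAl (log2FC 3.52, adjusted p = 1.69e-05) and 3.27 in NF-YAs (log2FC 3.10, adjusted p = 3.75e-05), and the scaffold BSN from 6.02 to 21.1 (log2FC 1.81, adjusted p = 5.05e-05) and 14.8 (log2FC 1.3, adjusted p = 0.000456). UNC13A, which primes vesicles, rose in NF-YAs (0.712 to 3.04 CPM, log2FC 2.08, adjusted p = 0.000477).

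Members of the same families fell. SYN3, a synapsin of the vesicle surface whose introns hold TIMP3 on the opposite strand, fell from an Empty level of 17.3 CPM to 0.121 in NF-YAl (log2FC -7.12, adjusted p = 3.48e-07) and 1.25 in NF-YAs (log2FC -3.79, adjusted p = 2.28e-06). SYT7, a calcium sensor with slow kinetics, fell from 24.6 to 7.12 CPM (log2FC -1.78, adjusted p = 3.27e-06) and 6.50 CPM (log2FC -1.92, adjusted p = 1.91e-06). SYT13, a synaptotagmin that does not bind calcium, fell from 3.07 to 0.348 CPM in NF-YAl (log2FC -3.05, adjusted p = 0.000437) and 0.506 in NF-YAs (log2FC -2.61, adjusted p = 0.000919).

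ENO2, neuron-specific enolase, a glycolytic enzyme used as a serum marker of neuroendocrine tumors (chr12:7022909-7032861, plus strand, 12 exons), fell in both lines. It had 280, 323 and 310 CPM for Empty A to C, 195, 204 and 170 for NF-YAl A, B and D, and 140, 145 and 140 for NF-YAs A to C. The 3 lines did not overlap and stepped down from Empty to NF-YAl to NF-YAs. The span of ENO2 overlaps LRRC23 on the same strand. Whether their exons overlap was not checked, so reads of any such overlap are uncertain. The log2FC was -0.68 in NF-YAl (SE 0.0973, adjusted p = 0.000252), to 0.624 of the Empty level with a 95% interval of 0.539 to 0.722. In NF-YAs it was -1.10 (SE 0.0982, adjusted p = 7.62e-06), to 0.465 of the Empty level with an interval of 0.401 to 0.539. The direct difference of NF-YAl over NF-YAs was 0.42 (SE 0.0974, adjusted p = 0.00887), and 7 of the 9 leave-one-out fits, those without Empty B or C, NF-YAl A or B or any NF-YAs library, took it past 0.01, with an adjusted p of up to 0.0468 without NF-YAs C.

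On the TPM scale, ENO2 had 165.29, 146.28 and 137.55 in Empty, 106.82, 95.13 and 148.20 for NF-YAl A, B and D, and 85.23, 78.98 and 71.63 in NF-YAs. Here NF-YAl D lay within the Empty range, and limma on log2(TPM + 0.1) gave a log2FC of -0.38 (adjusted p = 0.387) in NF-YAl and -0.93 (adjusted p = 0.032) in NF-YAs. With TPM rescaled after removal of genes under 200 bases, an alternative chosen after seeing the data, these became -0.52 (adjusted p = 0.00188) and -1.01 (adjusted p = 3.03e-05).

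**Figure D3:**
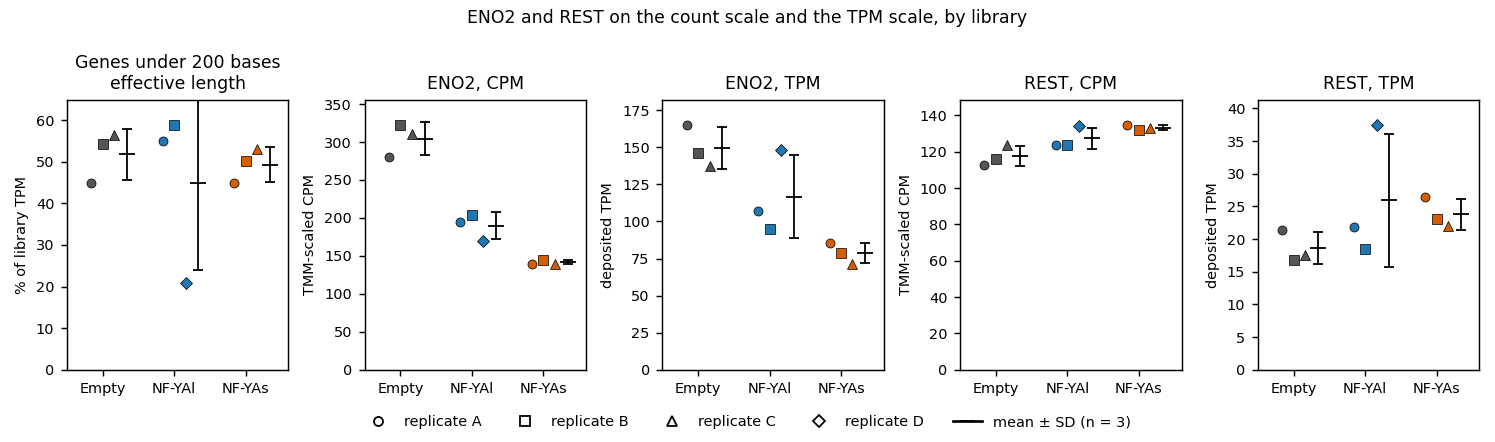
Share of each library's TPM taken by genes under 200 bases effective length, and the level of ENO2 and REST in every library as TMM-scaled CPM and as deposited TPM, with the mean and SD of 3 libraries. NF-YAl D has the low share of short genes (20.91%) and the raised TPM of both genes (148.20 and 37.53), while its CPM (170 and 134) lies near those of NF-YAl A and B.

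ENO2 fell beside other genes of a glycolysis list. Of 24 genes of enolases and glycolysis, 23 were tested. The list holds ENO2 itself, and glucose transporters and regulators beside the enzymes, and ENO2 is counted among the genes called lower in both lines. In NF-YAl 0 were called higher and 9 lower (0% and 39.1%), beside 10% and 9.54% of all tested genes. In NF-YAs 1 was called higher and 6 lower (4.35% and 26.1%), beside 12.1% and 10.5%. The median log2FC was -0.43 and -0.37. SLC2A1, the glucose transporter, fell from 297 CPM to 173 in NF-YAl (log2FC -0.78, adjusted p = 0.000238) and 101 in NF-YAs (log2FC -1.56, adjusted p = 1.82e-06), and ALDOC, the brain aldolase, fell from 110.0 to 60.5 (log2FC -0.86, adjusted p = 0.000168) and 58.6 (log2FC -0.91, adjusted p = 9.55e-05). ENO1, the enolase of most tissues, had 2320 CPM in Empty, 1620 in NF-YAl (log2FC -0.52, adjusted p = 0.0273) and 2090 in NF-YAs (log2FC -0.15, adjusted p = 0.512) and was not called in either line. PFKM, the muscle phosphofructokinase, was the 1 gene called higher, in NF-YAs (83.2 to 127 CPM, log2FC 0.61, adjusted p = 0.000509).

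The remaining surface and cytoplasmic markers of neuroendocrine tumors were mixed. Of 30 such genes, among them ENO2, 17 were tested. In NF-YAl 2 were called higher and 3 lower (11.8% and 17.6%), beside 10% and 9.54% of all tested genes. In NF-YAs 4 were called higher and 2 lower (23.5% and 11.8%), beside 12.1% and 10.5%. The median log2FC was 0.04 and 0.11. MAP2, a dendritic microtubule protein, rose from 1.31 CPM to 7.42 (log2FC 2.50, adjusted p = 5.98e-05) and 10.2 (log2FC 2.97, adjusted p = 1.47e-05), and KIF5C, a neuronal kinesin, from 17.8 to 72.7 (log2FC 2.03, adjusted p = 7.03e-06) and 39.0 (log2FC 1.13, adjusted p = 0.000307). NEFL, the light neurofilament, fell in NF-YAl from 481 to 199 CPM (log2FC -1.27, adjusted p = 1.98e-05), and SSTR5, a somatostatin receptor, fell in NF-YAs from 12.9 to 4.92 CPM (log2FC -1.39, adjusted p = 9.24e-05). BEX1, a small neuronal adaptor, was at 0 in all Empty and NF-YAl libraries and at 1.40 CPM in NF-YAs, at least 11.1-fold above the floor in Empty. It passed the filter through NF-YAs and could be called only higher there. Genes at or below the floor throughout numbered 8. UCHL1, a neuronal ubiquitin hydrolase, had at most 2 counts, the adhesion molecule NCAM1 had at most 4, and DLL3, a Notch ligand and drug target, had 5.32 CPM in Empty, 4.61 in NF-YAl (adjusted p = 0.498) and 5.74 in NF-YAs (adjusted p = 0.711).

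INSM1, a zinc finger factor that drives neuroendocrine differentiation (chr20:20348748-20351593, plus strand, 1 exon), had 0 counts in all 9 libraries, which allows up to 3 counts, or 0.162 CPM in the shallowest. NEUROD1, a proneural factor, was equally scarce, with at most 2 counts in any library. Of 30 neuroendocrine lineage transcription factors and related genes, 12 stayed at or below the floor in every library, 5 of them at 0 throughout, and 14 were tested.

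Among those 14, 4 were called higher and 0 lower in NF-YAl (28.6% and 0%), beside 10% and 9.54% of all tested genes. In NF-YAs 6 were called higher and 1 lower (42.9% and 7.14%), beside 12.1% and 10.5%. MYCN and ONECUT1, called higher in both lines, were at or below the floor in Empty. They passed the expression filter through the overexpressing lines and could be called only higher, so these shares are partly set by the filter. The median log2FC was 0.20 and 0.62. MYCN, a MYC family factor, had 0, 0 and 3 counts for Empty A to C, 76, 33 and 33 for NF-YAl A, B and D, and 43, 70 and 60 for NF-YAs A to C, at least 17.8-fold and 22.7-fold above the floor in Empty. All libraries of both lines lay above Empty. ONECUT2, a homeodomain factor, rose from 8.55 CPM to 28.7 in NF-YAl (log2FC 1.75, adjusted p = 2.27e-05) and 17.8 in NF-YAs (log2FC 1.06, adjusted p = 0.000671), and ONECUT1 was at 0 in Empty, with 3, 9 and 8 counts for NF-YAl A, B and D and 15, 21 and 13 for NF-YAs A to C. POU3F2 (BRN2), a POU factor of neural precursors, had 1.76, 1.23 and 2.24 CPM for Empty A to C, 5.30, 2.29 and 1.97 for NF-YAl A, B and D, and 15.8, 13.8 and 12.6 for NF-YAs A to C. It rose in NF-YAs (log2FC 3.01, adjusted p = 3.74e-05), was not called in NF-YAl, whose D library lay within the Empty range, and was lower in NF-YAl than in NF-YAs (log2FC -2.17, adjusted p = 0.000692). PEG10, a retrotransposon-derived gene, rose from 164 to 373 CPM in NF-YAs (log2FC 1.18, adjusted p = 1.82e-06), and MYT1, a zinc finger factor, rose from 2.31 CPM to 4.22 in NF-YAl (log2FC 0.87, adjusted p = 0.0057) and 4.01 in NF-YAs (log2FC 0.79, adjusted p = 0.00874). INSM2, the paralog of INSM1, fell in NF-YAs from 0.950 to 0.114 CPM (log2FC -2.98, adjusted p = 0.00422).

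**Figure D4:**
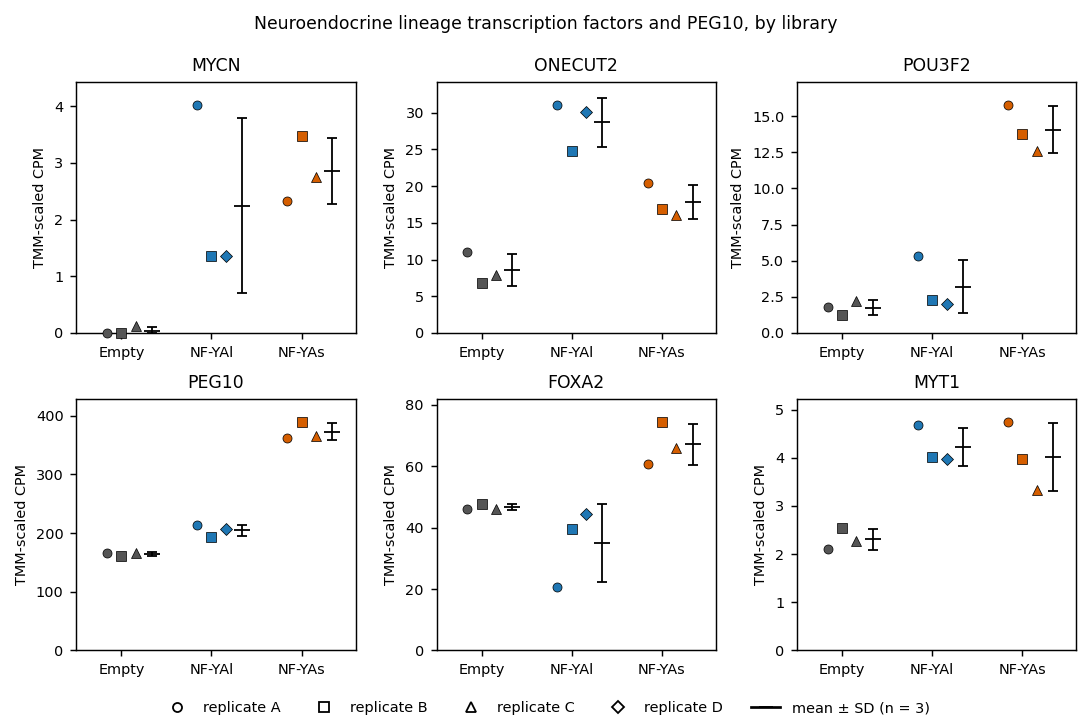
Level in every library, in TMM-scaled CPM, of 6 genes of the lineage factor list, with the mean and SD of the 3 libraries of each line. MYCN, ONECUT2 and MYT1 are above Empty in all 6 libraries of the overexpressing lines, while POU3F2 and PEG10 stand highest in NF-YAs and FOXA2, with NF-YAl A at 20.7 CPM, was not called against Empty in either line.

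REST (chr4:57774042-57832974, plus strand, 4 exons) stayed at a high level. It had 113, 116 and 124 CPM for Empty A to C, 124, 124 and 134 for NF-YAl A, B and D, and 135, 132 and 133 for NF-YAs A to C. The libraries of both lines lay at or above the top of the Empty range, but the step was small beside its error. The log2FC was 0.12 in NF-YAl (SE 0.0834, adjusted p = 0.325), a fold of 1.08 with a 95% interval of 0.955 to 1.23. In NF-YAs it was 0.18 (SE 0.0834, adjusted p = 0.106), a fold of 1.14 with an interval of 1.0 to 1.29. Neither interval holds a fall of more than 5% of the level, and NF-YAl and NF-YAs differed by -0.07 (SE 0.0834, adjusted p = 0.579). As TPM, REST was 16.82 to 21.41 in Empty, 18.51 to 37.53 in NF-YAl, with NF-YAl D on top, and 21.93 to 26.39 in NF-YAs. The span of REST overlaps NOA1 on the opposite strand. Whether their exons overlap was not checked, so reads of any such overlap are uncertain.

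REST was counted on 2 transcripts of 7333 and 7122 bases. The shorter took 49.60, 43.41 and 49.17% of REST TPM for Empty A to C, 47.85, 49.73 and 58.74% for NF-YAl A, B and D, and 52.23, 50.71 and 54.69% for NF-YAs A to C. Every NF-YAs library lay above every Empty library, and the two-sided exact permutation test gave p = 0.1, the smallest value that 3 against 3 allows, for a difference of 5.15 percentage points, and p = 0.4 for NF-YAl. Neither of the 2 transcripts is described in the files as the neural splice form, so the form made by SRRM4 was not measured here.

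SRRM4 (chr12:119419346-119600856, plus strand, 13 exons), the neural splicing factor that acts on REST, had 0, 0 and 1 counts for Empty A to C, 0 in all NF-YAl libraries and 0, 3 and 1 for NF-YAs A to C. No library exceeded the floor, and the gene, which also has antisense partners, was not tested. Its paralog SRRM3 was measurable. It rose in NF-YAs from 0.401 to 3.08 CPM (log2FC 2.92, adjusted p = 2.33e-05) and was at 0.547 CPM in NF-YAl, which was below NF-YAs (log2FC -2.46, adjusted p = 0.000177). Of 20 neuronal splicing regulators, 16 were tested. In NF-YAl 2 were called higher and 0 lower (12.5% and 0%), beside 10% and 9.54% of all tested genes. In NF-YAs 3 were called higher and 1 lower (18.8% and 6.25%), beside 12.1% and 10.5%. The median log2FC was 0.31 and 0.12. NOVA2, a neuronal RNA-binding protein, rose in both lines, from 1.42 CPM to 5.80 (log2FC 2.03, adjusted p = 7.59e-05) and 4.19 (log2FC 1.56, adjusted p = 0.000457), and ESRP2, an epithelial splicing regulator, fell in NF-YAs from 32.9 to 20.6 CPM (log2FC -0.67, adjusted p = 0.00476).

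The partners of REST changed little. All 25 corepressors and regulators of REST were tested. In NF-YAl 1 was called higher and 1 lower (4% and 4%), beside 10% and 9.54% of all tested genes. In NF-YAs 0 were called higher and 1 lower (0% and 4%), beside 12.1% and 10.5%. The median log2FC was 0.07 and -0.01. RCOR2, a neural paralog of RCOR1, rose in NF-YAl from 1.37 to 2.92 CPM (log2FC 1.09, adjusted p = 0.00526). RCOR1 itself, at 94.8 CPM in Empty, had a log2FC of -0.27 in NF-YAl (adjusted p = 0.0452) and -0.05 in NF-YAs (adjusted p = 0.722).

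Of 48 neuronal genes known to be silenced by REST, a list that includes 6 of the members, 30 were tested. In NF-YAl 7 were called higher and 2 lower (23.3% and 6.67%), beside 10% and 9.54% of all tested genes. In NF-YAs 7 were called higher and 0 lower (23.3% and 0%), beside 12.1% and 10.5%. The median log2FC was 0.46 and 0.15. BSN and UNC13A, described above, are on this list. BDNF, a neurotrophin, rose in NF-YAl from 5.34 to 10.8 CPM (log2FC 1.01, adjusted p = 0.00204), as did RUNDC3A, a neuronal protein, from 0.914 to 2.33 CPM (log2FC 1.34, adjusted p = 0.00402). The sodium channel SCN2A (11.4 to 7.0 CPM, log2FC -0.71, adjusted p = 0.00325) and the syntaxin STX1A (110.0 to 70.2 CPM, log2FC -0.65, adjusted p = 0.00111) fell in NF-YAl. Of the 48 genes, 11 stayed at or below the floor in every library, CHGB and SRRM4 among them.

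**Figure D5:**
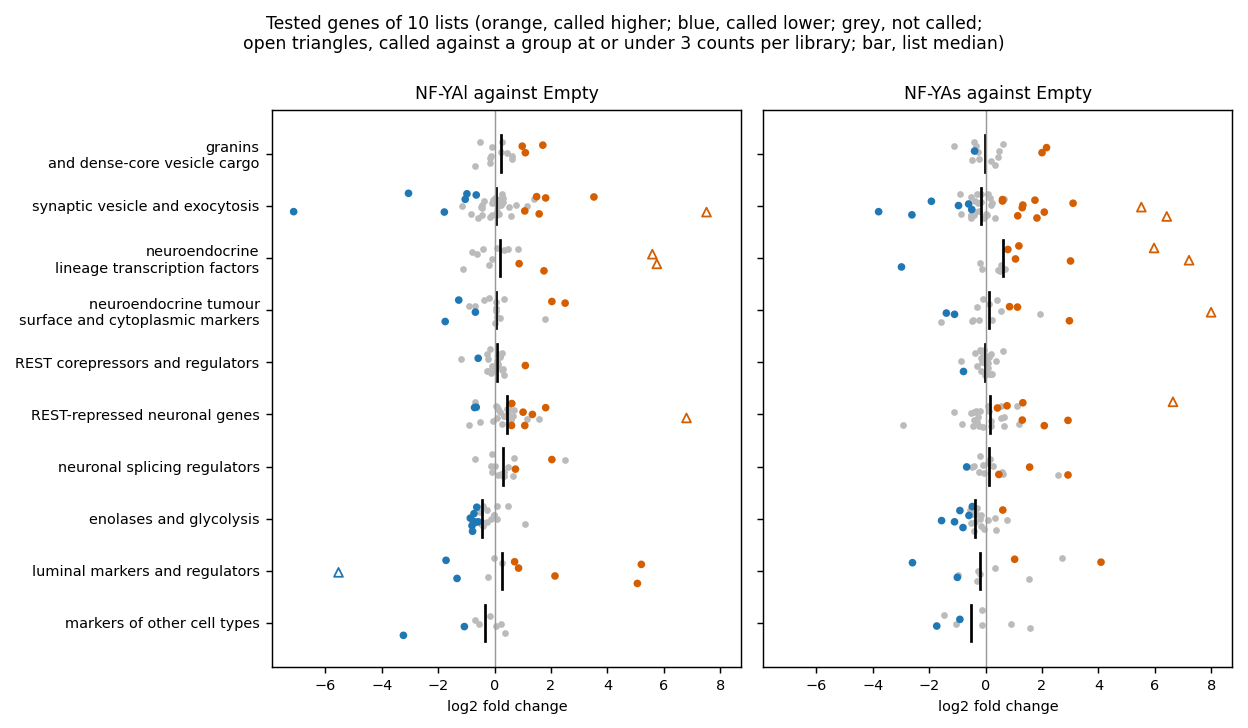
Log2 fold change of each tested gene of the 10 lists in NF-YAl and NF-YAs against Empty; orange and blue mark genes called higher and lower, grey genes not called, open triangles genes called against a group at or below 3 counts per library, and the bar the list median. Most lists hold genes on both sides of 0, and the list with no gene called higher in NF-YAl apart from that of other cell types is enolases and glycolysis, with a median of -0.43.

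NF-YAl and NF-YAs were also compared directly. NFYA was higher in NF-YAl with separate libraries, but was not called (log2FC 0.39, adjusted p = 0.0228 by edgeR). The part of this difference in the member results was not tested. Of the 5 tested members, 1 was called higher in NF-YAl (ENO2) and 1 lower (SYT1), beside 4.7% and 6.25% of all tested genes, and 0 members were among the DEGs, which made up 1.74% and 2.86% of genes. For 3 members, ENO2, SYT1 and SYP, the libraries of the lines were fully separate, as they were for 39.6% of all tested genes. The median log2FC of the 5 members was 0.27, the value of SCG2, which was not called, beside 0.02 over all tested genes. Of the lineage factor list, 0 genes were called higher in NF-YAl and 3 lower: POU3F2, PEG10 (205 against 373 CPM, log2FC -0.87, adjusted p = 4.56e-05) and FOXA2, a forkhead factor (35.0 against 67.1 CPM, log2FC -0.94, adjusted p = 0.00766).

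Counts of the other lists in this comparison were 0 higher and 1 lower of 14 granule genes, 2 and 5 of 41 synaptic genes, 3 and 3 of 17 surface and cytoplasmic markers, 1 and 0 of 25 REST partners, 1 and 4 of 30 REST-repressed genes, 1 and 1 of 16 splicing regulators and 3 and 1 of 23 glycolytic genes. Over all tested genes, 4.7% were called higher and 6.25% lower in NF-YAl against NF-YAs. ENO2 is among the surface and glycolytic genes called higher. SYT1 is among the synaptic and REST-repressed genes called lower. CALB1, a neuronal calcium buffer on the REST-repressed list, was the gene called higher there, at 24.5 CPM in NF-YAl and 1.07 in NF-YAs (log2FC 4.53, adjusted p = 0.00368). Its NF-YAl libraries spread from 2.28 CPM in A to 50.3 CPM in D.

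Luminal markers of the prostate, which are usually lost in the neuroendocrine state, moved in both directions. Of 13 luminal markers and regulators, 11 were tested. In NF-YAl 5 were called higher and 3 lower (45.5% and 27.3%), beside 10% and 9.54% of all tested genes. In NF-YAs 2 were called higher and 2 lower (18.2% and 18.2%), beside 12.1% and 10.5%. In NF-YAl against NF-YAs the counts were 3 and 2 (27.3% and 18.2%), beside 4.7% and 6.25%. The medians were 0.27, -0.19 and 0.56. FOLH1, the prostate membrane antigen, rose in NF-YAl (0.105 to 3.80 CPM, log2FC 5.06, adjusted p = 8.7e-05), and TMPRSS2, a membrane serine protease, fell in NF-YAl (14.4 to 4.38 CPM, log2FC -1.72, adjusted p = 5.27e-05) and NF-YAs (to 2.39 CPM, log2FC -2.59, adjusted p = 4.1e-06). FOXA1, a forkhead factor, rose in NF-YAl from 88.8 to 160.0 CPM (log2FC 0.85, adjusted p = 0.000784) and fell in NF-YAs to 44.5 CPM (log2FC -1.0, adjusted p = 0.000241).

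Markers of other cell types were checked in the same libraries. The summed level of 13 markers of immune, endothelial, muscle and glial cells was 69.2 to 88.6 CPM in Empty, 31.4 to 45.5 in NF-YAl and 38.7 to 47.7 in NF-YAs. The T cell marker CD3E was at 0 in all libraries of both overexpressing lines, and 8 of the 13 were tested, with 0 called higher and 2 lower in each line against Empty and 1 higher and 1 lower in NF-YAl against NF-YAs, at medians of -0.36, -0.53 and 0.11. Most of the sum was CD68, a lysosomal protein of macrophages, which fell from 60.8 CPM to 28.9 in NF-YAl (log2FC -1.07, adjusted p = 0.000941) and 32.2 in NF-YAs (log2FC -0.91, adjusted p = 0.00231), as ENO2 did. Its part in the member results was not tested.

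For each tested member, the 2 genes most like it in level across the 9 libraries were sought among genes of at least 5 CPM by Pearson's r of log2 CPM. The libraries fall into 3 groups and share their depth, so r describes these libraries only. ENO2 was most like RNF165 (r = 0.994) and the creatine transporter SLC6A8 (r = 0.993), SYT1 like the ankyrin ANK2 (r = 0.982) and DHX57 (r = 0.982), and SYP like the myosin light chain kinase MYLK (r = 0.95) and B3GNT4 (r = 0.946). REST was most like CCZ1 (r = 0.982) and KBTBD2 (r = 0.966), with SCG2 lower, at 0.862 with OSGEPL1 and 0.853 with EPGN. RNF165 went from 21.8 CPM over 9.99 to 5.26 CPM in Empty, NF-YAl and NF-YAs, and ANK2 from 2.42 to 4.37 and 10.3.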

How the data were processed

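RNA-seq libraries of PC3 MTSs were described as stranded total RNA libraries. Per the methods and the submitters' notes, the authors aligned reads to human transcripts of GRCh37 (hg19) with bowtie2 within RSEM. The deposited tables of a library hold an expected count and a TPM per gene and per transcript, and the percent of a gene's TPM held by each transcript, with effective lengths in bases. Expected counts are RSEM's estimates without normalization, and TPM were scaled by the authors' software to the same total in each library. Whether counting used the strand is not given in the sources used here.

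Rounded expected counts went into edgeR 4.0.16 under R 4.3.3 (filterByExpr, TMM, quasi-likelihood F test, the 9 libraries in one fit, Benjamini-Hochberg adjustment over all 17108 genes). DESeq2 1.42.0 and limma 3.58.1 served as alternatives. TPM were tested as log2(TPM + 0.1), with a minimum mean of 0.1 TPM, and fold changes on that scale understate those of low genes. Transcript shares were compared by two-sided exact permutation tests. Folds against a group with at most 3 counts in every library are given against that floor, taken per library, and are lower bounds. They and the intervals cover these libraries only. A gene that low in a group passed the filter through the others and could be called only lower in that group. RE1 sites were sought in the GRCh37 sequence with GENCODE starts, and promoters came from RefSeq. The procedure was tested on simulated counts with known, large changes in well-counted genes and the same spread for all genes. That test does not cover small changes, scarce genes such as SYP or a library that stands apart.

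Groups and letters came from the sample labels. The members and gene lists were chosen with earlier results of these data known. Genes named were the members, NFYA, up to 3 DEGs per list, comparison and direction with the largest |log2FC| given a mean of 1 CPM or more in whichever group was higher and fully separate libraries, for REST partners and luminal markers also called genes, and for each tested member the 2 most similar genes. The text names a part of these, some are not reported here, and some further genes were named after their values were seen: SYTL4 and BSN outside their comparison by that rule, PAM, ENO1, PFKM, ALDOC, UCHL1, NCAM1, DLL3, NEUROD1, ONECUT1, MYT1, INSM2, FOXA2, ESRP2, RCOR1, BDNF, SCN2A and STX1A. The replicate letters were checked for pairing: residuals of same-letter libraries had a correlation of -0.0652 to 0.253 over 7 pairs, and the letters were not taken as pairs. A chi-square test of counts between replicate libraries gave 6.08 to 86.7 per gene over 9 pairs, above counting noise, with the pairs of NF-YAl D highest. Alternatives are described in the closing section.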

Additional observations from a re-analysis of the deposited data

Results flagged for a closer look

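ENO2 and SYT1 were flagged because the differences of the 2 overexpressing lines from Empty were unlike by a test of the lines against each other. For ENO2, the effect of NF-YAl exceeded that of NF-YAs by 0.42 on the log2 scale (adjusted p = 0.00887 by edgeR), since ENO2 fell less in NF-YAl, and all 3 NF-YAl libraries lay above all 3 NF-YAs libraries. For SYT1, the difference was -0.83 (adjusted p = 0.00212 by edgeR), since SYT1 rose more in NF-YAs, and all 3 NF-YAl libraries lay below all 3 NF-YAs libraries. No formal test for an outlying library was run on groups of 3, while NF-YAl D, which stood apart on both scales, and the fits without each library are described with the results.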

How the results depend on the processing

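Over 15 log2FC of tested members and up to 20 alternatives each, 297 values were computed, of which 258 kept their direction and their side of the threshold, 33 kept the direction but lost the call, 1 gained it and 5 changed sign. The sign changes were in differences that were not called: REST in NF-YAl against NF-YAs was 0.06 by limma with 0.1 or 1 added to TPM and 0.00 with TPM rescaled without short genes, SCG2 in NF-YAs against Empty was -0.16 without NF-YAs replicate A (-0.16 to 0.42 over the leave-one-out fits), and SCG2 in NF-YAl against NF-YAs was -0.14 without NF-YAl replicate A (-0.14 to 0.62). At an adjusted p under 0.05, SYT1 was also called in NF-YAl against Empty. The cause of these changes was not tested, except that leaving out a library leaves fewer samples.

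The number of members called in NF-YAl against Empty, 2 as reported, was 1 (ENO2) with only the 2 groups compared and with the replicate block, 0 by limma on log2(TPM + 0.1) or log2(TPM + 1), 3 at an adjusted p under 0.05, and 1 to 2 over the leave-one-out fits, with ENO2 called in each. In NF-YAs against Empty it was 1 (SYT1) by limma on log2(TPM + 0.1) and 0 on log2(TPM + 1), and 2 in all leave-one-out fits. In NF-YAl against NF-YAs it was 1 (SYT1) with only the 2 groups compared, 1 (ENO2) by limma on TPM rescaled without short genes, 0 by limma on TPM with either addition, and 0 to 2 over the leave-one-out fits, with 0 without NF-YAl B, NF-YAs A or NF-YAs C.

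The numbers of all genes called, 3346, 3865 and 1874 for NF-YAl and NF-YAs against Empty and for the direct comparison, were 2167, 6036 and 1033 with only the 2 groups compared. They were 772, 826 and 234 by limma on log2(TPM + 0.1), 579, 666 and 236 on log2(TPM + 1), and 5496, 6065 and 3989 at an adjusted p under 0.05. Leaving out 1 library gave 2009 to 4274, 2358 to 5023 and 830 to 2754 genes. DESeq2 called 2871 genes in NF-YAl against NF-YAs.

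The replicate letters were not taken as pairs. With the letter as a block, 4160, 5316 and 2813 genes were called in the 3 comparisons, and of the member calls the block ended that of SYP in NF-YAl against Empty (log2FC 1.18, adjusted p = 0.0113). Depth limits the scarce members: CHGA, CHGB, INSM1 and SRRM4 had at most 6 counts per library and were not tested, and SCG2 and SYP had 9 to 53.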
